A study of Homo sapiens with 4 samples.

Results

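The genes described here encode aldo-keto reductases and a carbonyl reductase, enzymes that use NADPH to turn aldehydes and ketones into alcohols. They were chosen by family name, and the family was picked on the known rise of AKR1C2 in these same arrays. The differences of its members between the lines are therefore given as a description. Members called in a fit over all genes are listed later beside the share of all genes, and nothing is read from those calls. Of 10 listed genes 8 were measured: AKR1C1, AKR1C2, AKR1C3 and AKR1C4, AKR1B10, AKR7A2, AKR7A3 and CBR1, out of 18417 genes in all. AKR1A1 and AKR1B1 were not analysed here. Each gene was read from the probe set with the highest mean over the 4 arrays, and no probe set listed several AKR1C genes.

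RNA was compared between 2 arrays of MV4-11, a human acute myeloid leukaemia cell line with an MLL fusion and an internal tandem duplication of the kinase gene FLT3, and 2 arrays of MV4-11R, a resistant line raised from it over 3 months in increasing amounts of PKC412. PKC412 (midostaurin) inhibits FLT3 and other kinases. Arrays 1 and 2 of a line are its replicates 1 and 2. MV4-11 was the control and is labelled as sensitive with high EZH2; MV4-11R is labelled as resistant with low EZH2. MV4-11R is 1 selected line, so a difference can belong to that line as well as to resistance, and these cannot be told apart.

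Human AKR1C enzymes reduce steroids, prostaglandins and products of lipid peroxidation. Several of the enzymes here, among them CBR1, AKR1C3 and AKR1B10, also reduce the ketone of anthracyclines such as daunorubicin, a drug of leukaemia treatment, to a less active alcohol. Many AKR1C and AKR1B10 inducers act through NRF2, the transcription factor of the response to oxidants and electrophiles, which binds antioxidant response elements in target genes. AKR7A enzymes reduce aflatoxin dialdehyde and succinic semialdehyde.

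The promoter sequences are shown because those of AKR1C1 and AKR1C2 could hardly be told apart. Both genes were picked for this with their differences known. AKR1C1 differed by 2.70 between the lines on 1 probe set and by only 0.21 on the other. Whether the promoters bear on any difference between the lines was not tested. The bases just upstream of the start site were taken from RefSeq (GRCh38.p14), 250 bases for each gene, written 5′ to 3′ on the strand of the gene. For AKR1C1 (chr10:4963165-4963414, plus strand) and AKR1C2 (chr10:5003858-5004107, minus strand), capitals mark the base where each differs from the other. For AKR1C3 (chr10:5048531-5048780, plus strand, the first of its 2 listed start sites), capitals mark the bases that differ from AKR1C2 or that AKR1C2 lacks. For CBR1 (chr21:36069774-36070023, plus strand), shown for contrast, capitals mark an antioxidant response element core on the minus strand and a xenobiotic response element core.
AKR1C1: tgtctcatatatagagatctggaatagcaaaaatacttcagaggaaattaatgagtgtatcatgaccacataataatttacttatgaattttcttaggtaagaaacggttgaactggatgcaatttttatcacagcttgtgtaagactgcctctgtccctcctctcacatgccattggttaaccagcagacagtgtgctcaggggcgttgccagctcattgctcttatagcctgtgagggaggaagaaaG
AKR1C2: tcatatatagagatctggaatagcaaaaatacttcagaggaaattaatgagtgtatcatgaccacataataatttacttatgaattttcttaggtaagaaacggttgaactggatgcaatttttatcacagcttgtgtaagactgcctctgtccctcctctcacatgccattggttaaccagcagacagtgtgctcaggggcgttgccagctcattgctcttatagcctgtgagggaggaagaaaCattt
AKR1C3: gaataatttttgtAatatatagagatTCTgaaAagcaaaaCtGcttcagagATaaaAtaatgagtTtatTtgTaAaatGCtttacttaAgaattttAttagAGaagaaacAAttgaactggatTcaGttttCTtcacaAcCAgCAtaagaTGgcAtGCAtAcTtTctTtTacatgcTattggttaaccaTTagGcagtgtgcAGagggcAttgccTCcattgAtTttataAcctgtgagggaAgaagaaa
CBR1: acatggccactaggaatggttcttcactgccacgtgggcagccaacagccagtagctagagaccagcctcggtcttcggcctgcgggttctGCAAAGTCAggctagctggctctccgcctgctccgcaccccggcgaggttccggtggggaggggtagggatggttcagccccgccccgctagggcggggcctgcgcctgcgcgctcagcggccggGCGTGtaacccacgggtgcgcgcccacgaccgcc

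AKR1C1 and AKR1C2 matched at 245 of 246 aligned bases (99.6%) with no gap, the exception being the last base of the AKR1C1 window, whereas the AKR1C3 window shown matched AKR1C2 at 183 of 246 aligned columns (74.4%) and AKR1C4 at 157 of 251 (62.5%). The AKR1C windows were poor in G and C, from 32.0% (AKR1C3) to 40.8% (AKR1C1), with between 0 and 2 CpG dinucleotides each, against a median of 58% and 11 CpG over 35093 promoter windows. CBR1 (69.6% and 23 CpG), AKR7A3 (67.2% and 27 CpG) and AKR7A2 (79.2% and 31 CpG in the first of its windows) lay above those medians. RefSeq's table matched 9 of the 10 listed genes, and no AKR1B10 promoter was printed.

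The core of the antioxidant response element (TGACNNNGC, both strands) was in none of the AKR1C windows, once in CBR1 and 3 times in AKR7A2. It was found in 10.9% of all windows of that length. The core of the xenobiotic response element (GCGTG, both strands), bound by the aryl hydrocarbon receptor, was in CBR1, AKR7A2 and AKR7A3 and in none of the AKR1C windows, against 32.2% of all windows. The AP-1 site (TGACTCA or TGAGTCA, both strands; the first can overlap a response element core) was in no window of a measured member, against 4.2% of all. These are letter matches in a short window and say nothing of binding.

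AKR1C2 (Entrez gene 1646), known as a hydroxysteroid dehydrogenase that inactivates dihydrotestosterone, was the member with the largest difference. Its RMA signal, in log2 units throughout, was 6.44 and 6.81 on the MV4-11 arrays and 9.67 and 9.88 on the MV4-11R arrays. Both MV4-11R arrays stood far above both MV4-11 arrays, with a gap of 2.86 between the nearest arrays. The means were 6.62 ± 0.26 (SD, n = 2) and 9.77 ± 0.15 (SD, n = 2), a log2 difference of 3.15 (SE 0.16), or 8.87-fold. It was the rise of rank 12 among 18417 genes.

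AKR1C1 (Entrez gene 1645), which inactivates progesterone, followed the same course on the probe set drawn from its RefSeq transcript (8180376). That probe set read 5.60 and 5.33 in MV4-11 and 7.97 and 8.36 in MV4-11R, means of 5.47 ± 0.19 and 8.17 ± 0.27 (SD, n = 2), a difference of 2.70 (SE 0.17) or 6.48-fold, and rank 20 among the rises. The MV4-11 level lay under the background guide of 6.26, the 95th percentile of 341 olfactory receptor genes, which blood cells hardly express, so that fold is not exact. AKR1C2 in MV4-11, at a mean of 6.62, lay only a little above this guide, so its fold is not exact either. The other AKR1C1 probe set (7925918), drawn from a single cDNA clone, read 6.52 and 6.52 in MV4-11 and 6.64 and 6.83 in MV4-11R, higher by only 0.21 (SE 0.12). The probe sets of AKR1C1 thus disagreed, and the mean of both gave a difference of 1.46. Probe set 8180376 was kept as the brighter over the 4 arrays (6.82 against 6.63) only through its MV4-11R values. In MV4-11 it was the dimmer (5.47 against 6.52), so the difference and rank of AKR1C1 depend on that choice. AKR1C1 and AKR1C2 are close copies, and how much of either signal came from the other gene was not tested.

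AKR1C3, which makes testosterone and prostaglandin F in other tissues, read 5.22 and 4.69 in MV4-11 and 5.82 and 5.77 in MV4-11R. Both MV4-11R arrays lay above both MV4-11 arrays, as they did for 29.6% of all genes, but all 4 lay under the background guide. The means were 4.96 ± 0.38 and 5.80 ± 0.04 (SD, n = 2), a difference of 0.84 (SE 0.19), or 1.79-fold, which ran from 0.57 to 1.11 when 1 array was left out. AKR1C4, the liver enzyme of bile acid synthesis, read 4.58 and 4.40 in MV4-11 and 4.70 and 4.54 in MV4-11R, with overlapping arrays and a difference of 0.13 (SE 0.13). In the AKR1C group the difference thus ranged from 3.15 for AKR1C2 to 0.13 for AKR1C4.

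AKR1B10, a retinal and aldehyde reductase best known from the gut and from liver and lung tumours, was near the bottom of the scale in both lines. It read 4.23 and 4.10 in MV4-11 and 4.08 and 4.13 in MV4-11R, with overlapping arrays and a difference of -0.06 (SE 0.11). Both lines lay under the background guide.

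The remaining 3 members were lower in MV4-11R by a small amount. AKR7A2, the aldehyde reductase that is found in most tissues, read 11.05 and 11.09 in MV4-11 and 10.63 and 10.74 in MV4-11R, a difference of -0.38 (SE 0.11). AKR7A3, its neighbour, read 8.04 and 8.11 in MV4-11 and 7.64 and 7.84 in MV4-11R, a difference of -0.34 (SE 0.12). CBR1, the main carbonyl reductase for anthracyclines in many tissues, read 7.98 and 8.11 in MV4-11 and 7.57 and 7.87 in MV4-11R, a difference of -0.33 (SE 0.14). For all 3, both MV4-11R arrays lay below both MV4-11 arrays, as they did for 26% of all genes. The gap between the nearest arrays was only 0.12 for CBR1, against 0.30 for AKR7A2. The CBR1 difference ran from -0.48 to -0.18 with 1 array left out.

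**Figure D1:**
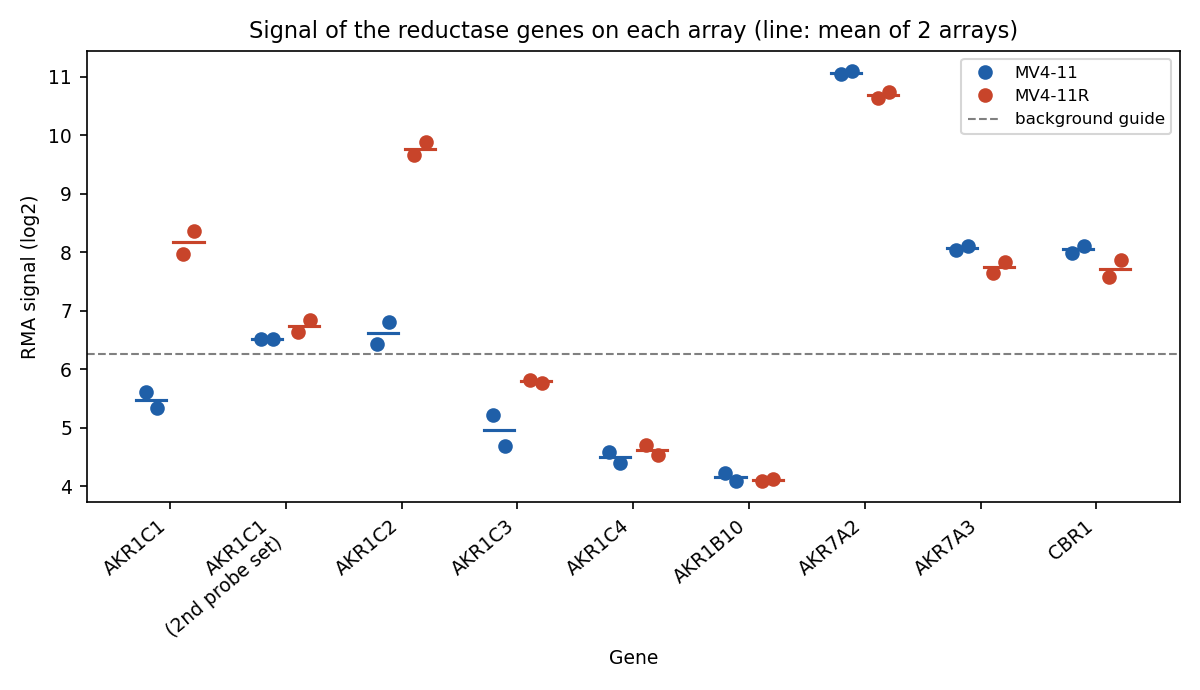
RMA signal (log2) of the 8 measured reductase genes, with both AKR1C1 probe sets, on each of the 2 MV4-11 and 2 MV4-11R arrays (points), with the mean of each line (short bars) and the background guide of 6.26 (dashed). AKR1C2 and the brighter AKR1C1 probe set stand apart in MV4-11R, while AKR7A2, AKR7A3 and CBR1 are slightly lower there.

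In a limma fit across all genes (called at a Benjamini-Hochberg adjusted p under 0.05), 3 of the 8 members were called, all 3 as rises (AKR1C1, AKR1C2 and AKR1C3). Over all 18417 genes 15.1% were called, 7.92% as rises and 7.13% as falls. Both MV4-11R arrays lay above both MV4-11 arrays for 3 members and below them for 3, against 29.6% and 26% of all genes. Because this contrast put the family forward, nothing is read from these counts. With 1 array left out, 1 line rested on 1 array, and fewer genes were called over all genes too. The AKR1C3 difference then ran from 0.57 to 1.11, and its call was not kept in each such fit. A filter on level, at the 25th percentile of all genes, kept 5 of the 8 members, leaving out AKR1B10, AKR1C3 and AKR1C4. That filter used the mean over the 4 arrays. AKR1C1 passed it only through its MV4-11R values (mean 8.17, against 5.47 in MV4-11), so its call there is no separate support.

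Members that neighbour each other on a chromosome were set beside the genes around them. The AKR1C genes lie together on chromosome 10. Of the 10 nearest tested genes on each side, 2 rose and 1 fell, with a median difference of -0.10 and a range from -1.26 to 0.53. The nearest tested genes were the pseudogene AKR1C6P at -0.09 and the peptide hormone gene UCN3 at 0.38. AKR1E2, the family member just before AKR1C6P, read 5.59 and 5.60 in the lines (difference 0.01, SE 0.11, adjusted p = 0.982 by limma), with a sign that turned without MV4-11 array 1 (-0.03) or MV4-11R array 1 (-0.05). AKR1C8, between AKR1C3 and AKR1C4, was higher by 0.37 (SE 0.13, adjusted p = 0.115 by limma), all under the background guide. The large differences thus stood at AKR1C2, on which the family was picked, and at the brighter AKR1C1 probe set, with a smaller one at AKR1C3. The other AKR1C1 probe set, at 0.21, lay within the range of the neighbours.

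CBR1 lies on chromosome 21 beside CBR3, a second carbonyl reductase, which was lower by 0.41 on the log2 scale (8.13 ± 0.01 to 7.73 ± 0.12, SD, n = 2; adjusted p = 0.0662 by limma) and did not pass the test. SETD4, the gene on the other side of CBR1, had a difference of -0.43. Over 20 neighbours of CBR1 the median was 0.02. Around AKR7A2 and AKR7A3 on chromosome 1 the nearest genes were MRTO4 at 0.76 and SLC66A1 at -0.13, and the median of the 20 neighbours outside the pair was 0.11, of which 2 rose and 0 fell. Between AKR7A3 and AKR7A2 lies LOC100506730, named after its value was known, which fell by 0.91 on the log2 scale (SE 0.21). Around AKR1B10 on chromosome 7 the median was 0.04.

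**Figure D2:**
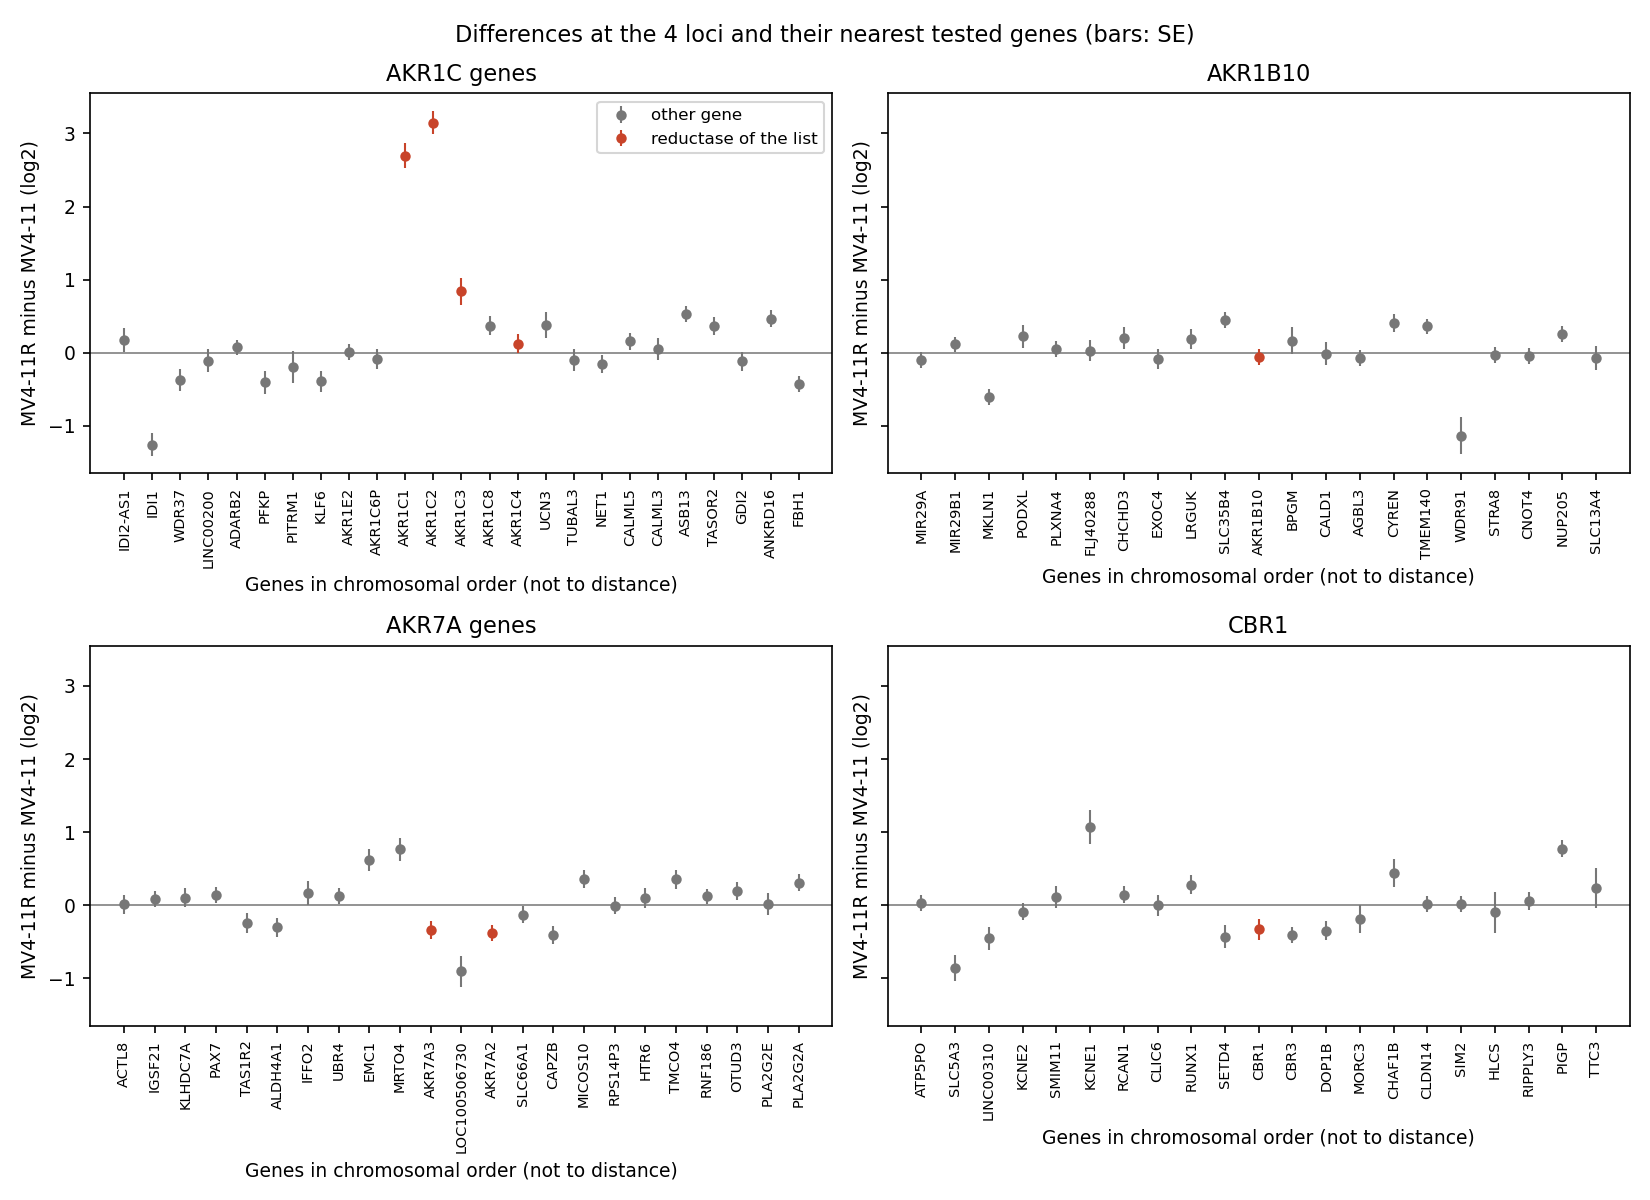
Difference of MV4-11R minus MV4-11 (log2, bars are the SE) for the reductases (red) and the 10 nearest tested genes on each side (grey) in chromosomal order, 1 panel for each of 4 loci. At the AKR1C locus AKR1C1 (2.70, brighter probe set) and AKR1C2 (3.15) lie far above all neighbours, which span -1.26 to 0.53.

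The other members of the superfamily and related enzymes were then counted from lists that leave out the members. A count is to be read against the 15.1% called over all genes, whose median difference was 0.01. Of 6 other aldo-keto reductases and KCNAB potassium channel subunits, 0 were called at an adjusted p under 0.05 by limma (the lowest was 0.115, for AKR1C8), with a median of 0.01. The bile acid enzyme AKR1D1 averaged 3.99 in the parent and 3.90 in the resistant line (difference of -0.09, SE 0.12, adjusted p = 0.730 by limma), a sign that turned without MV4-11 array 1 (0.02).

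Of 24 other carbonyl and quinone reductases 5 rose, 2 fell and 17 did not pass, with a median of 0.09. The retinal reductase DHRS3 rose 2.78-fold (log2 difference 1.47, SE 0.30, adjusted p = 0.0272 by limma), the sepiapterin reductase SPR 1.80-fold and the mitochondrial reductase CBR4 1.70-fold (adjusted p = 0.0116). The other rises were of PTGR1 (1.56-fold, from under the background guide in MV4-11, so not exact) and NQO2 (1.52-fold, chosen after its value was seen). The retinol dehydrogenase DHRS9 fell by 1.15 on the log2 scale, to under the background guide, so that size is not exact, and DHRS12 fell by 0.88. The call was lost for DHRS3 without MV4-11 array 1 (adjusted p = 0.0687) and for SPR without MV4-11 array 1 (0.105) or MV4-11R array 2 (0.0754). For NQO2 it was lost without MV4-11 array 1 (0.138), MV4-11R array 1 (0.0821) or MV4-11R array 2 (0.0874). The count itself was 4 without MV4-11 array 1 and 4 without MV4-11R array 2. NQO1, the quinone reductase most used as a sign of NRF2 activity, was not called (8.89 to 8.68, difference -0.21, SE 0.13, adjusted p = 0.376).

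NRF2 pathway genes, 26 of them measured, held 1 rise, 1 fall and 24 genes that did not pass, with a median of -0.02. The malic enzyme ME1, which makes NADPH, rose 3.42-fold (4.95 to 6.72, adjusted p = 0.00159 by limma), from below the background guide, and the glutathione synthesis gene GCLC fell by 1.35 on the log2 scale (adjusted p = 0.0112). NFE2L2, which encodes NRF2, read 10.24 and 10.45 (difference 0.21, SE 0.11, adjusted p = 0.292), and its inhibitor KEAP1 9.51 and 9.65 (difference 0.14, SE 0.11, adjusted p = 0.490).

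Steroids, retinoids and prostanoids are substrates of AKR1C enzymes. Of 25 steroid hormone enzymes HSD17B12 rose 1.40-fold (adjusted p = 0.0438 by limma), the testosterone reductase SRD5A1 fell by 0.76 on the log2 scale (adjusted p = 0.0104), HSD17B13 fell by 0.80 (adjusted p = 0.0438, with all 4 arrays under the background guide) and 22 did not pass, with a median of 0.01. HSD17B12 failed the test whichever array was left out (adjusted p = 0.0802 and 0.189 for MV4-11 array 1 and 2, and 0.104 and 0.121 for MV4-11R array 1 and 2). That of HSD17B13 was lost without MV4-11 array 2 (0.0986), MV4-11R array 1 (0.109) or MV4-11R array 2 (0.0948), and in each of these cases 1 gene of the list was called.

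Among 18 retinoid genes there were 3 rises and 1 fall, while 14 did not pass, and the median was 0.16. The retinol dehydrogenase RDH10, which makes retinal, rose 3.01-fold (adjusted p = 0.00817 by limma), and RDH13 rose 1.57-fold (adjusted p = 0.0136, or 0.0599 without MV4-11 array 2 and 0.0505 without MV4-11R array 1). The third rise was of DHRS3 and the fall of DHRS9, both counted above.

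Among 23 prostanoid genes there was 1 rise and 5 falls, while 17 did not pass, and the median was -0.07. The thromboxane synthase TBXAS1 fell by 2.10 on the log2 scale (8.36 to 6.26, adjusted p = 0.00119 by limma). Its MV4-11R arrays, at 6.13 and 6.40, lay on either side of the background guide of 6.26, so that size is not exact. The exporter ABCC4 fell by 1.66 (adjusted p = 0.00169) and the prostaglandin E receptor PTGER2 fell by 1.37 (adjusted p = 0.00358). The other falls were of PTGER4 and PTGIR, both by 0.63 and both chosen after their values were seen. PTGR1, which inactivates prostaglandins and leukotriene B, rose from under the background guide (adjusted p = 0.0434), a call lost without MV4-11 array 1 (0.164), MV4-11 array 2 (0.0532) or MV4-11R array 2 (0.125). PTGER4 lost its call without MV4-11 array 1 (0.0815) or MV4-11R array 1 (0.0652), and PTGIR without MV4-11 array 1 (0.0733), MV4-11 array 2 (0.0916) or MV4-11R array 1 (0.0872). Without MV4-11 array 1 the list had 3 calls.

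Aldehydes are also cleared by oxidation. Of 26 aldehyde and alcohol dehydrogenases 4 rose, 2 fell and 20 did not pass, with a median of 0.11. ALDH18A1, which makes a proline precursor, rose 3.04-fold (adjusted p = 0.00761 by limma), the folate enzyme ALDH1L2 2.25-fold, ALDH5A1, which oxidises succinic semialdehyde, 1.54-fold and ALDH16A1 1.52-fold, named here only after its value was known. ALDH9A1 and ALDH3B1 each fell by 0.62. All but ALDH18A1 lost the call without at least 1 array. ALDH1L2 lost it without MV4-11R array 1 (adjusted p = 0.108) and ALDH5A1 without MV4-11 array 2 (0.0941), MV4-11R array 1 (0.0605) or MV4-11R array 2 (0.0577). ALDH16A1 lost it without MV4-11 array 1 (0.0729), MV4-11 array 2 (0.0764) or MV4-11R array 1 (0.0752). ALDH9A1 lost it without MV4-11 array 1 (0.130), MV4-11R array 1 (0.0561) or MV4-11R array 2 (0.0914), and ALDH3B1 without MV4-11 array 1 (0.110), MV4-11 array 2 (0.0925) or MV4-11R array 1 (0.108). The list held 3 calls without MV4-11 array 1 and 2 without MV4-11R array 1.

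Among 7 genes of the polyol and methylglyoxal routes, whose sugars and aldehydes aldo-keto reductases also handle, 1 rose, 2 fell and 4 did not pass, with a median of 0.14. The fructose transporter SLC2A5 rose 6.11-fold (8.64 to 11.25, adjusted p = 0.00163 by limma). The glyoxalase GLO1, which removes methylglyoxal, fell by 1.31 on the log2 scale (11.94 to 10.62, adjusted p = 0.00213) and the fructokinase KHK by 0.52 (adjusted p = 0.0432). KHK failed the test whichever array was left out (adjusted p = 0.190 and 0.0621 for MV4-11 array 1 and 2, and 0.146 and 0.0678 for MV4-11R array 1 and 2).

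Of 16 other genes that bear on anthracycline transport, targets and oxidant defence, 3 rose, 0 fell and 13 did not pass, with a median of -0.05. The carnitine transporter SLC22A16, which can also import doxorubicin, rose 5.21-fold from under the background guide (5.80 to 8.18, adjusted p = 0.00316 by limma). The nucleoside transporter SLC28A3 rose 2.91-fold (adjusted p = 0.00154) and the mitochondrial superoxide dismutase SOD2 2.24-fold (adjusted p = 0.00439). No drug response or enzyme activity was measured on these arrays.

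**Figure D3:**
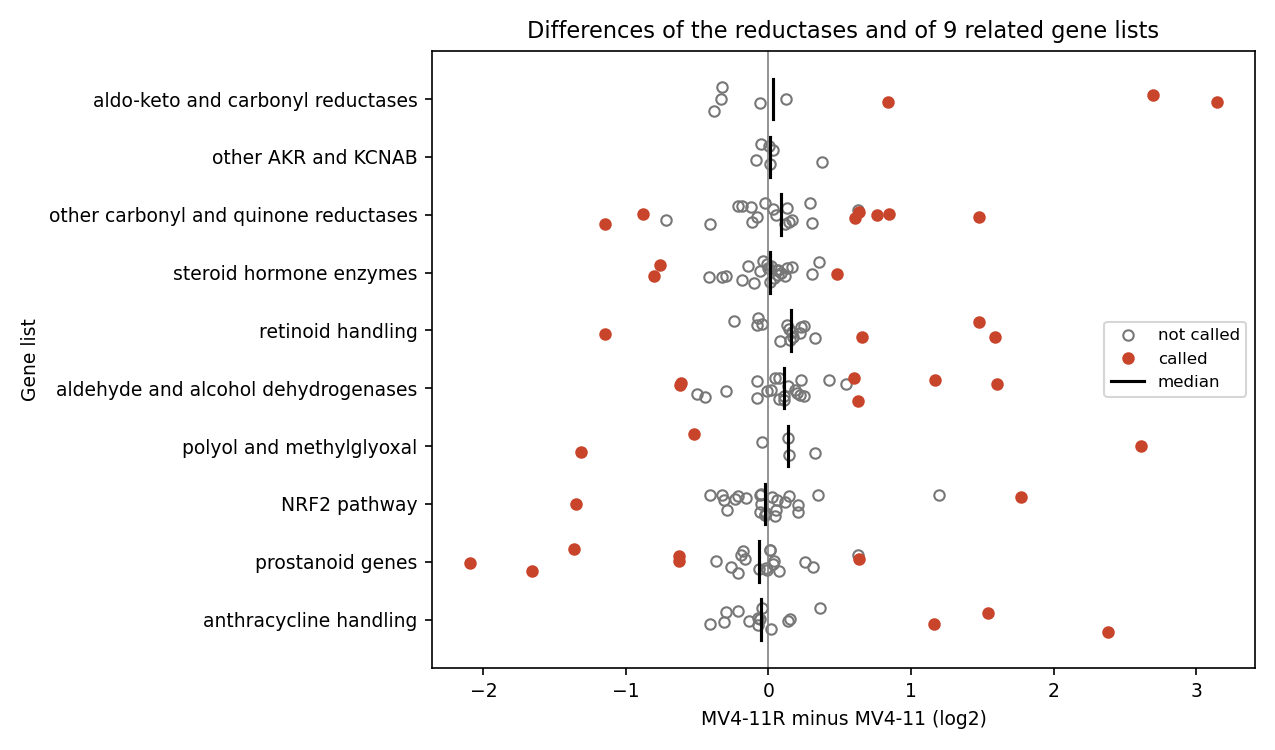
Difference of MV4-11R minus MV4-11 (log2) for each measured gene of the reductase family and of 9 related lists, filled where called at an adjusted p under 0.05 by limma, with the median of each list (black bar). AKR1C1 (brighter probe set) and AKR1C2 (2.70 and 3.15) lie at the far right, and the NRF2 list centres on -0.02 with 2 called genes.

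Over the series, median signal was between 6.75 and 6.78 on the 4 arrays, and 2772 of 18417 genes were called. EZH2 read 9.74 ± 0.01 in MV4-11 and 9.60 ± 0.43 in MV4-11R (SD, n = 2; difference -0.14, SE 0.20, adjusted p = 0.734 by limma), and the MV4-11R arrays, at 9.90 and 9.29, lay on either side of the MV4-11 arrays; without MV4-11R array 2 the difference was 0.16. Of the markers for myeloid cells 8 of 8 measured lay above the background guide on the mean of 4 arrays, although CD14 lay under it in MV4-11 (6.09). Their summed linear signal was 15323 to 17891 in MV4-11 and 12854 to 15100 in MV4-11R. CSF1R fell by 1.73 on the log2 scale (adjusted p = 0.00939 by limma), LYZ fell by 0.69 (adjusted p = 0.0192) and 6 were not called. Among these 6, CD14 and MPO were higher on both MV4-11R arrays, by 0.77 and 0.47. The median difference of the 8 myeloid markers was -0.002, and their part in the results was not tested. Of the markers for hepatocytes, where AKR1C enzymes are abundant, 2 of 9 lay above the guide. Their summed linear signal was 437 to 470 in MV4-11 and 410 to 462 in MV4-11R. Epithelial markers (5 of 8 above the guide) summed to 967 to 1015 in MV4-11 and 780 to 822 in MV4-11R. T and NK cell markers (2 of 6) summed to 1548 to 1634 in MV4-11 and 2780 to 2946 in MV4-11R, led by NKG7. Of these 6 only NKG7 was called (10.38 to 11.33 in log2 units, adjusted p = 0.00518 by limma), and 5 were not. Their part in the results was not tested. Of the markers for fibroblasts 4 of 6 and for B cells 3 of 4 lay above the guide. Called by limma were 1 of 9 hepatocyte, 2 of 8 epithelial, 1 of 6 fibroblast and 2 of 4 B cell markers, against 15.1% of all genes. TF (hepatocyte), CLDN4 and KRT18 (epithelial) and CD79B (B cell) fell, while LUM (fibroblast) and PAX5 (B cell) rose. TF and LUM lay under the guide in both lines. The part of these markers in the results was not tested either.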

How the data were processed

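RNA was measured on 4 Affymetrix Human Gene ST arrays, 2 per line. Values are log2 signals per probe set, which the authors made with RMA and Affymetrix Expression Console (named without versions in the submitters' processing notes) and deposited as 1 table; the log2 scale was read from their range. RMA compresses differences of dim genes. Of 33297 probe sets, 19460 had 1 gene, 1754 several and 12083 none in the annotation used here. The brightest probe set was kept for the 769 genes with more than 1, with no filter on level.

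Differences were fitted with limma 3.58.1 (R 4.3.3; lmFit, eBayes, 2-sided) without a replicate block over all 18417 genes, checked on simulated data. The SE is moderated. The labels name no separate cultures, so p-values measure the spread between arrays, which may be technical. The number of arrays limits the precision. Promoters were aligned with Biopython 1.88.

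Members and lists were chosen with earlier results of these data known. Genes named by rule were all members, and 7 fixed relatives and regulators with EZH2 where measured. From each list up to 3 called rises and falls were named, or the largest difference where none was called. The genes nearest to the AKR1C, AKR7A and CBR1 loci were named too. Named outside the rule, with their values known, were LOC100506730, NQO2, ALDH16A1, PTGER4, PTGIR and single cell type markers. Alternatives were median centring, quantile normalization, the mean of probe sets, every probe set tested, a level filter, trended robust variances, a replicate block and leaving out each array.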

Additional observations from a re-analysis of the deposited data

How the results depend on the processing

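The differences of AKR1C1, AKR1C2 and AKR1C3 stayed positive under each alternative that held them. AKR1C1 was 1.46 with the mean of both its probe sets, and AKR1C2 ran from 2.96 to 3.33. The number of members called ran from 2 to 4, beside 1505 to 3642 over all genes or probe sets. AKR7A2 was called as a fall with trended robust variances, AKR1C3 lost its call when every probe set was tested and without any of 3 of the 4 arrays (all but MV4-11 array 1), and it was not tested under the filter on level. When every probe set was tested, 1505 of 33297 were called, with 3 calls among other carbonyl and quinone reductases, 1 among steroid enzymes, 1 among aldehyde and alcohol dehydrogenases and 3 among prostanoid genes. When genes under the 25th percentile of level were dropped, 1 NRF2 pathway gene was called, since ME1 was left out. With 1 array left out, calls ran from 1588 to 2479 over all genes, 4 to 7 for carbonyl and quinone reductases, 1 to 2 for steroid enzymes, 2 to 4 for aldehyde and alcohol dehydrogenases and 3 to 5 for prostanoid genes. Why these counts moved was not tested. Replicate numbers are shared by the lines but not described as a shared batch. Deviations of same-numbered arrays correlated at 0.26 across genes, and with the replicate block 3642 genes and 3 members were called. Signals near the background guide, as of AKR1C3, AKR1C4 and AKR1B10, limit what can be read of these genes.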
